A study of Mus musculus with 31 samples.

Results

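Dexamethasone and a degrader of BRD9 were given together to mouse macrophages, and their joint effect on the response to lipopolysaccharide (LPS) was measured as the difference between the 3 Dex + dBRD9 + LPS libraries and the 3 LPS libraries of the first RNA sequencing experiment. These 6 libraries were chosen by their labels, out of 21 in that experiment and 31 in the whole series. Macrophages were grown from bone marrow of male C57BL/6J mice, 6 to 12 weeks old, in medium conditioned by L-929 cells. The 3 LPS libraries came from cells that received LPS, a cell wall component of bacteria, at 100 ng/ml for 3 h. The 3 combination libraries came from cells that also received dexamethasone (Dex, 1 µM), a synthetic glucocorticoid, and the BRD9 degrader dBRD9 (250 nM), both overnight before LPS. For reference, 3 libraries each came from cells given vehicle, Dex + LPS and dBRD9 + LPS. A second experiment had 2 libraries in each group and combined LPS with IFNγ (interferon-gamma, dose and time not given in the sources used here), with the same Dex and dBRD9 treatments. The labels do not say whether the libraries of a group came from separate mice or cultures, so p-values measure only how these libraries spread, which may be partly technical.

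LPS is sensed by the Toll-like receptor TLR4 on macrophages and turns on NF-κB and interferon regulatory factors, which drive an early wave of cytokine genes and, through secreted interferon-beta, a later wave of interferon-induced genes. The glucocorticoid receptor, once bound by Dex, moves to the nucleus, induces genes with anti-inflammatory and metabolic roles and represses many LPS-induced genes. BRD9 is a bromodomain subunit of the non-canonical BAF complex, a machine that remodels nucleosomes, and the degrader removes the protein. The study asked how BRD9 bears on inflammatory responses and on the activity of the glucocorticoid receptor.

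The LPS libraries held 24.6, 29.7 and 20.5 M (mega) counts and the combination libraries 25.8, 24.9 and 21 M. Expression is given in CPM, counts per M of scaled library total. The first combination library stood apart from the other two. Its deviation from the group mean fell with transcript length (Spearman rho = -0.515 across genes, against 0.317 and 0.427). Chi-square per degree of freedom, which is 1 for counting error alone, was 12.4 and 12.8 between it and the other two, against 2.8 between those and 2.13 to 2.59 among the LPS libraries. Summed markers of macrophage identity were at 17300 to 18000 CPM with LPS and at 24900 to 27800 CPM with the combination. Of 9 markers of T and NK cells, 6 had no read in the 6 libraries, among them Cd3e, Cd3d and Cd3g, and so had 4 of 7 erythroid markers, 3 of 6 of mast cells and basophils, 2 of 7 of B cells, 2 of 7 of stromal cells, 1 of 10 of neutrophils and 1 of 7 of dendritic cells. The 5 tested neutrophil markers summed to 17 to 24 CPM with LPS and 13 to 14.9 CPM with the combination. The 2 tested B cell markers, Cd79b and Ighm, summed to 19.8 to 21.5 and 14.6 to 19.4 CPM, and Pdgfrb, the 1 stromal marker tested, was at 29.7 to 32.9 and 14.8 to 16.9 CPM. Lck, the 1 T and NK cell marker tested, was at 1.4 to 1.85 and 0.115 to 0.451 CPM, on 113 and 19 reads (log2 difference -2.62, adjusted p = 2.5e-05). Klrb1c, not tested, had 15 and 14 reads. The part of such cells in the results was not tested. Brd9 (ENSMUSG00000057649, chromosome 13, positions 73937811 to 73960895, plus strand; mm10), which encodes the target, was at 45.2, 44.7 and 38.9 CPM with LPS and 38.5, 34 and 34.5 CPM with the combination. That log2 difference was -0.27 (SE 0.0613, adjusted p = 0.000616), and with scaling by library totals alone it was -0.12 (adjusted p = 0.105). A transcript level does not check the loss of the protein.

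The combination changed a majority of the genes tested. Of 12662 genes, 3959 (31.3%) were called higher and 3712 (29.3%) lower than with LPS alone, where called means a Benjamini-Hochberg adjusted p under 0.05 in edgeR's quasi-likelihood test. Among them 767 higher and 1362 lower genes differed at least 2-fold. The 3 combination libraries did not overlap the 3 LPS libraries in 8569 genes (67.7%). Without the first combination library 7278 genes were called, against 7671 with it. Of the 7671, 6992 (91.1%) were called in the same direction and 0 in the opposite direction. Scaling by library totals alone gave 5374 higher and 2832 lower genes and moved the median log2 difference of all genes from 0.0293 to 0.178. All log2 values below are on the main scale, on which the median gene lay at 0.0293. In bulk libraries, fewer cells of a type and less RNA per cell cannot be told apart.

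**Figure D1:**
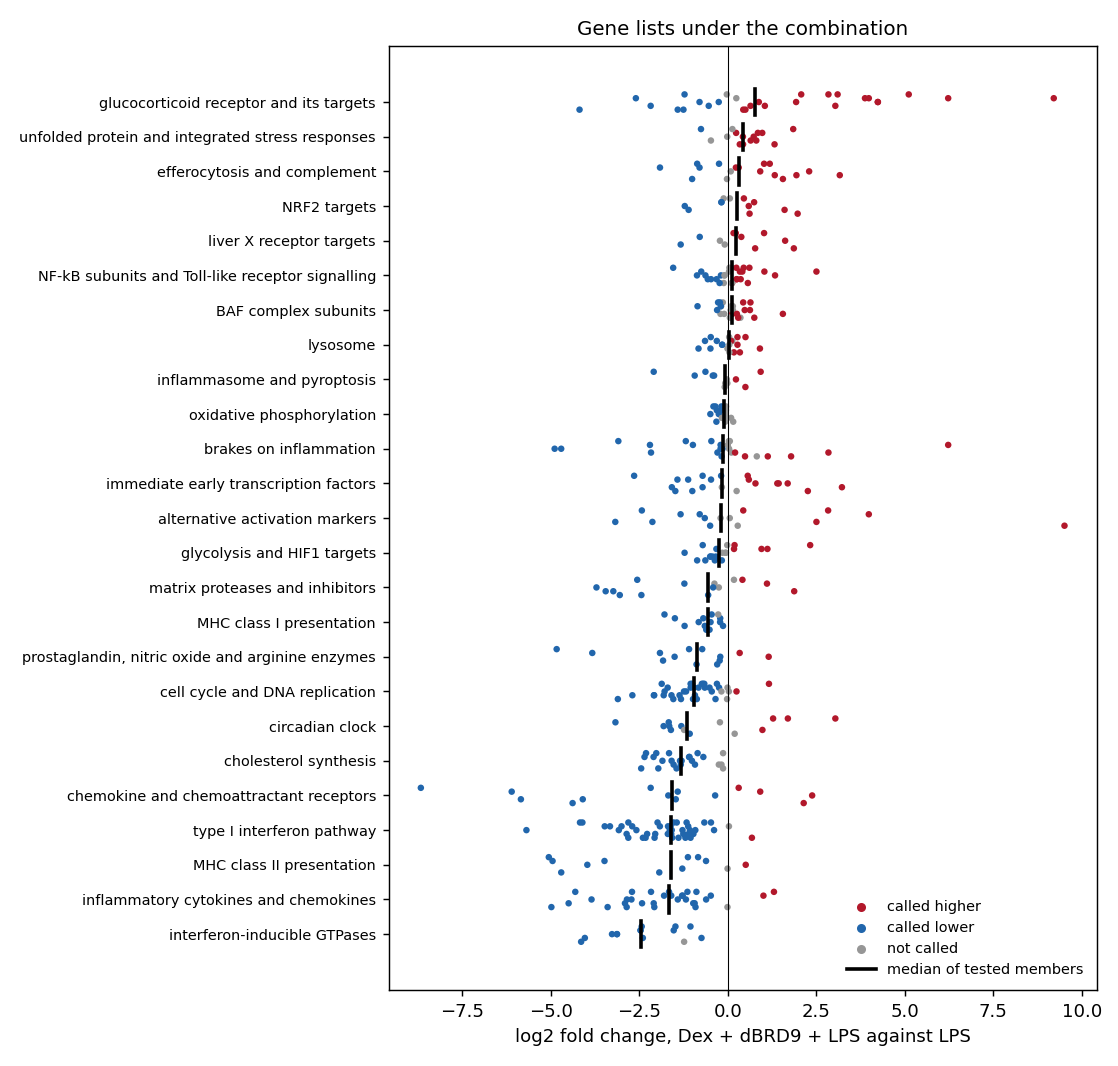
Log2 fold change of Dex + dBRD9 + LPS against LPS (x axis) for each tested member of the pathway lists (y axis, ordered by median), with called genes in red (higher) or blue (lower), other genes in grey and the median as a black bar. Interferon-inducible GTPases had the lowest median (-2.44), and glucocorticoid receptor targets the highest (0.764).

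Interferon-induced genes fell together. Of 45 genes of the type I interferon pathway, 43 fell, 1 rose and 1 was not called (2 rose with scaling by library totals alone), against 29.3% lower among all genes, with a median log2 difference of -1.61. Irf3, a constitutive regulator of interferon-beta transcription, was the member that rose (0.69 on the log2 scale), and Ifnar2, a chain of the interferon receptor, was not called (0.037). Of 14 tested interferon-inducible GTPases, which attack membranes around intracellular pathogens, 13 fell and Gbp8 was not called. Of 14 genes of MHC class I presentation, 13 fell, with a smaller median of -0.557.

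The letters of the interferon-stimulated response element, to which interferon-activated factors bind, were searched as GAAANNGAAA on both strands of RefSeq promoters (GRCm38.p6, the mm10 assembly), each spanning 250 bases before to 50 after a gene's start. They occurred in 3.99% of 27025 symbols with a promoter entry. Among interferon-inducible GTPases they occurred in 9 of 10 genes with an entry (90.0%). In the type I interferon pathway they occurred in 15 of 34 (44.1%), in MHC class I presentation in 4 of 12 (33.3%), and in MHC class II presentation in 1 of 8 (12.5%). In cholesterol synthesis they occurred in 1 of 17 (5.88%), in inflammatory cytokines and chemokines in 1 of 20 (5.0%) and in the cell cycle list in 1 of 30 (3.33%). Over tested genes with an entry, 386 of 9606 (4.02%) held them. The share was 193 of 2776 (6.95%) in genes called lower, 98 of 973 (10.1%) in genes called at least 2-fold lower, 88 of 3181 (2.77%) in genes called higher, 19 of 582 (3.26%) in genes called at least 2-fold higher and 105 of 3649 (2.88%) in genes not called. A match is a description of the letters and not a shown binding site. Promoters are printed for 4 genes that fell and hold these letters, each in the gene's 5′ to 3′ direction, with the matching letters in capitals. Cxcl10 encodes a T cell chemoattractant, Socs1 an inhibitor of cytokine signalling, Tgtp2 an interferon-inducible GTPase and Apol7c a member of the apolipoprotein L family.
Cxcl10 (chr5:92348840-92349139, minus strand): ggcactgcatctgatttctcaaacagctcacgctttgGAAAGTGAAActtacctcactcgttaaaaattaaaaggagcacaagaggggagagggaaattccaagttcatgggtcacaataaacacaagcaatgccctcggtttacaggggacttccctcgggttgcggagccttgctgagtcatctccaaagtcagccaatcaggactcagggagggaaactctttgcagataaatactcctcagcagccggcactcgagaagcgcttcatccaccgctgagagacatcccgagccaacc
Socs1 (chr16:10785487-10785786, minus strand): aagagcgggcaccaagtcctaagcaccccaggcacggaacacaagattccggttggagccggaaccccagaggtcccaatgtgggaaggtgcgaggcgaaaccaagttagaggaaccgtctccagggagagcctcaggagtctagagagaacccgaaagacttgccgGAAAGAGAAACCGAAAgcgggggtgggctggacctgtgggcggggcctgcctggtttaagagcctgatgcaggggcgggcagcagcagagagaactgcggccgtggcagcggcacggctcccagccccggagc
Tgtp2 (chr11:49064163-49064462, minus strand): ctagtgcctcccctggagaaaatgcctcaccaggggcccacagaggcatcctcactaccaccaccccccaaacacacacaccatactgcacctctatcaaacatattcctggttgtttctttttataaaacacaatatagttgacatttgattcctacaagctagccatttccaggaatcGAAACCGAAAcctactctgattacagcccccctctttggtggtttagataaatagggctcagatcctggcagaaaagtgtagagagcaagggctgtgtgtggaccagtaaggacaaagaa
Apol7c (chr15:77533266-77533565, minus strand): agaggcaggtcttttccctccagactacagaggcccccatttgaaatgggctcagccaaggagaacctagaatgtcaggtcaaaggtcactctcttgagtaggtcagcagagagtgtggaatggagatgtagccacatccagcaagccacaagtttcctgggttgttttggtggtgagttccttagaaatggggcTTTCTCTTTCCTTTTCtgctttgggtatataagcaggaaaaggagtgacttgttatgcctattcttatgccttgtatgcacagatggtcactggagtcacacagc
In Cxcl10 the match lay 204 to 213 bases before the start and in Tgtp2 61 to 70 bases before it. Socs1 had 2 overlapping matches in a shared run of capitals, 68 to 83 bases before the start. In Apol7c the 2 matches overlap and lie on the opposite strand, 40 to 55 bases before the start, and there the capitals show the complement.

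Ifnb1 (ENSMUSG00000048806, chromosome 4, positions 88522025 to 88522774, minus strand), which encodes interferon-beta, was at 6.36, 6.07 and 5.61 CPM in the LPS libraries and at 0.23, 0.041 and 0.048 CPM in the combination libraries. All combination libraries lay far below all LPS libraries, at 8 reads in total against 405. The log2 difference was -5.68 (SE 0.373, adjusted p = 3.52e-11). Mx1, a gene of the Mx GTPase family, stood at 870.3, 804 and 928 CPM with LPS and 36.8, 51.9 and 56.1 CPM with the combination. These groups did not overlap, and the log2 difference was -4.17 (SE 0.151, adjusted p = 2.14e-16). Oasl1, a member of the oligoadenylate synthetase family, went from 347, 342 and 359 to 19.2, 22.4 and 19.4 CPM, a log2 difference of -4.10 (SE 0.12, adjusted p = 4.52e-18). Other members of the pathway fell less steeply. Ifit2, which binds viral RNA, differed by -3.07 on the log2 scale, and Mx2 by -3.47. Among the GTPases, Iigp1 differed by -4.14, Ifi47 by -3.27 and Gvin1 by -2.46. Tgtp2 had 36.1, 32.4 and 40 CPM with LPS and 2.45, 1.8 and 2.35 CPM with the combination (log2 difference -4.03). Tgtp2 and Tgtp1 are near-identical copies between which reads may be split, so the level of each is uncertain. Cxcl10 (ENSMUSG00000034855, chromosome 5, positions 92346638 to 92348889, minus strand) had 1188, 1112 and 1189 CPM with LPS and 199, 219.7 and 235 CPM with the combination, and the groups did not overlap. Its log2 difference was -2.42 (SE 0.0944, adjusted p = 7.81e-16). In class I presentation the largest falls were those of Nlrc5, the transactivator of class I genes (-1.78), and Tap1, a subunit of the peptide transporter (-1.49).

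Interferon-induced genes remained above the unstimulated level for the most part. Against vehicle, 38 of the 45 type I pathway genes were higher with the combination and 5 lower, where 37.4% of all genes were called higher and 38.2% lower. Mx1 was at 6.11 ± 0.598 CPM (SD, n = 3) with vehicle and at 48.3 ± 10.1 CPM with the combination.

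Inflammatory cytokines and chemokines fell. Of 31 tested, 28 were lower than with LPS alone, 2 were higher (Csf3, a neutrophil growth factor, by 1.01 on the log2 scale, and Tnfsf9, a costimulatory ligand, by 1.31) and Csf1 was not called. The median log2 difference was -1.66, and all 31 genes were still higher than with vehicle. The size of the fall differed widely between cytokines. Tnf, the gene of tumour necrosis factor, went from 8677, 8587 and 8006 CPM with LPS to 4164, 4396 and 4325 CPM with the combination. The groups did not overlap, and the log2 difference was -0.97 (SE 0.045, adjusted p = 1.53e-14). Il6, which encodes the cytokine IL-6, went from 416, 395 and 407 to 166, 164 and 169 CPM, a log2 difference of -1.29 (SE 0.0801, adjusted p = 1.43e-11). Il1b, which encodes the fever-inducing cytokine IL-1β, was at 5992, 5978 and 5576 CPM with LPS and at 1369, 1352 and 1407 CPM with the combination, with a log2 difference of -2.09 (SE 0.0558, adjusted p = 9.78e-19). The steepest falls in the list were in Tnfsf15, a ligand of the tumour necrosis factor family, and Ccl22, a chemokine for regulatory T cells. Tnfsf15 had 400.1, 405 and 414 CPM with LPS and 10.1, 12.9 and 16 CPM with the combination (log2 difference -4.98). Ccl22 had 615, 647 and 634 and 28.8, 27.9 and 27.6 CPM (log2 difference -4.49). The neutrophil chemoattractant gene Cxcl3 differed by -3.84. Subunit genes of IL-12 and IL-23 also fell, with -1.80 for Il12b and -3.39 for Il23a. Ccl2, a monocyte chemoattractant gene, was among the less changed members, at 516, 536 and 530.4 CPM with LPS and 353, 346 and 339 CPM with the combination (-0.61, SE 0.075, adjusted p = 3.04e-07).

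**Figure D2:**
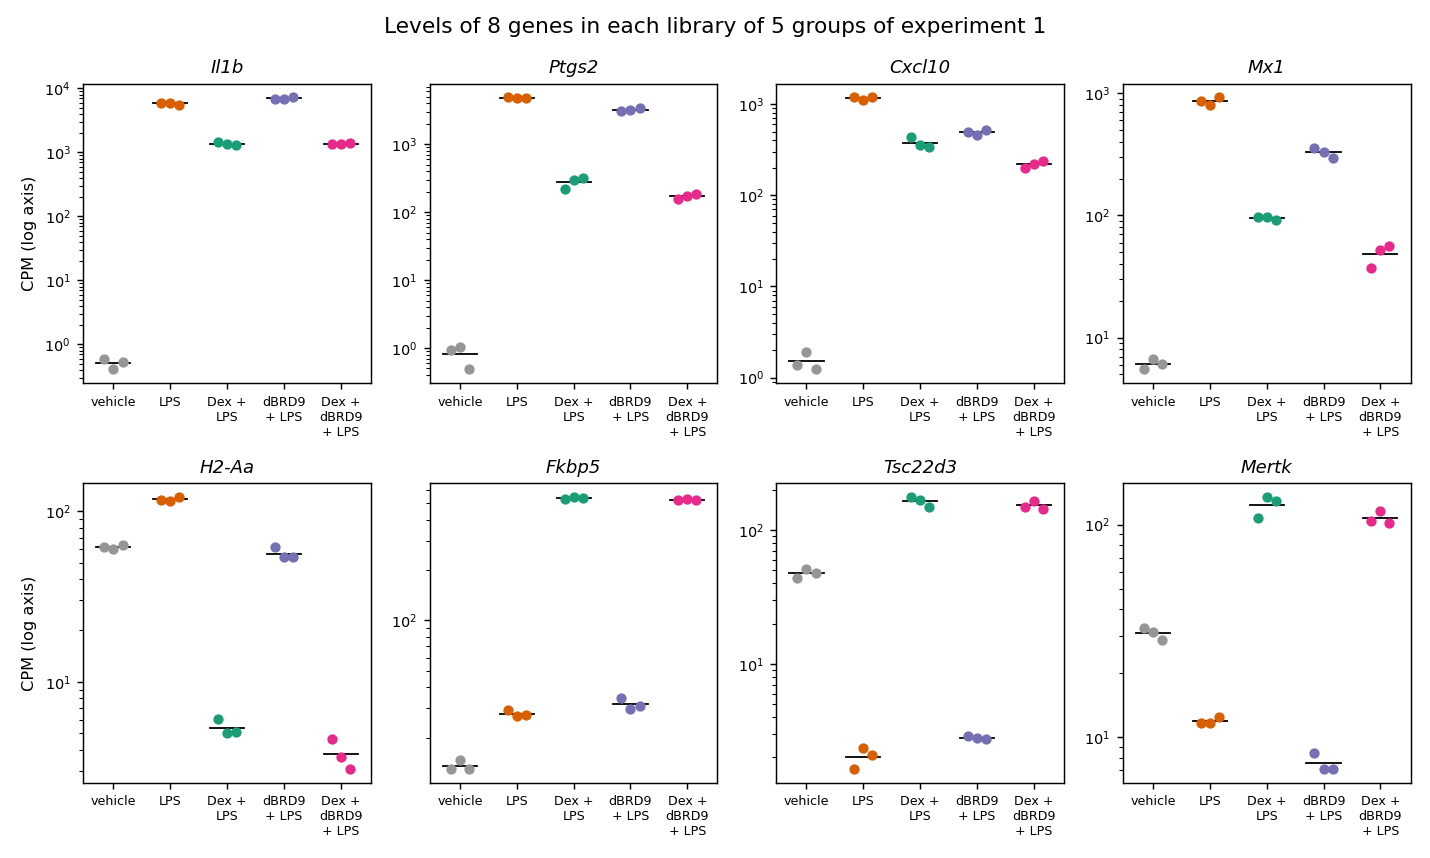
CPM on a log axis in each of 3 libraries (points) and their mean (bar) for 8 genes in 5 groups of experiment 1. Fkbp5, Tsc22d3 and Mertk were not called between the 2 groups with Dex, Mx1 and Cxcl10 were lowest among the LPS-treated groups with the combination, and H2-Aa with the combination was below vehicle.

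Enzymes that make inflammatory mediators fell with the cytokines. In the list of prostaglandin, nitric oxide and arginine enzymes, 11 of 13 tested genes were lower, and Arg2 and Alox5ap were higher. Ptgs2, the inducible cyclooxygenase, was at 4916, 4790 and 4870 CPM with LPS and at 156, 170.2 and 187 CPM with the combination. The log2 difference was -4.83 (SE 0.118, adjusted p = 2.5e-19). Nos2, the inducible nitric oxide synthase, went from 309, 309 and 303 to 20, 18.7 and 26.6 CPM (-3.82, SE 0.104, adjusted p = 1.3e-18). Slc7a2, which imports arginine, and Ass1, which recycles citrulline to arginine, also fell (-1.91 and -1.82). Of 15 tested matrix proteases and inhibitors, 9 were lower and 3 higher (Mmp8, Adam8 and Adam17), against 29.3% and 31.3% of all genes. Mmp12, the macrophage elastase, was at 6663, 6939 and 6706 CPM with LPS and 526, 504 and 527 CPM with the combination, a log2 difference of -3.71. The collagenase gene Mmp13 (-3.44), the gelatinase gene Mmp9 (-3.05) and the protease inhibitor gene Timp1 (-3.23) also fell.

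Chemokine and chemoattractant receptors changed in all 14 tested genes, 10 lower and 4 higher (Cxcr4, P2ry12, C5ar1 and C3ar1). Over all genes 60.6% were called in either direction. Ccr3 (ENSMUSG00000035448, chromosome 9, positions 124021972 to 124031689, plus strand), a receptor for eotaxins, was at 20.8, 23.8 and 22.3 CPM in the LPS libraries and at 0.766, 1.39 and 1.06 CPM in the combination libraries. The groups did not overlap, and the log2 difference was -4.38 (SE 0.178, adjusted p = 1.55e-15). Cx3cr1, the fractalkine receptor, differed by -4.09, and Fpr1, a receptor for bacterial formyl peptides, by -2.17.

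Class II antigen presentation fell below the level in unstimulated cells. Of 12 tested genes, 10 were lower than with LPS, the costimulatory gene Cd80 was higher and Cd86 was not called. Against vehicle, 9 were lower and 3 higher. With Dex + LPS, 10 of the 12 were lower than with LPS. Against Dex + LPS, 6 were lower with the combination, among them Ciita (log2 difference -0.81), and 6 were not called, among them H2-Aa (-0.50). H2-Aa (ENSMUSG00000036594, chromosome 17, positions 34282744 to 34287823, minus strand), which encodes a class II alpha chain, was at 62, 59.7 and 63.4 CPM with vehicle, 116, 115 and 121 CPM with LPS and 4.64, 3.61 and 3.07 CPM with the combination. The 3 combination libraries lay below all libraries of both other groups. The log2 difference to LPS was -4.95 (SE 0.141, adjusted p = 2.95e-18). The beta chain gene H2-Eb1 went from 77.7, 77.6 and 76.5 to 2.34, 2.42 and 2.21 CPM (-5.05), and H2-Ab1 differed by -3.96. Ciita, the master transactivator of class II genes, went from 30.1, 33.9 and 32.5 to 1.11, 1.56 and 1.01 CPM, a log2 difference of -4.70 (SE 0.151, adjusted p = 2.63e-17). Macrophage markers did not fall together in these libraries. Of 12 markers of macrophage identity, 6 were higher, 5 lower and Spi1 was not called. Dendritic cells carry much class II. Of 7 dendritic cell markers 3 were tested, and they summed to 6.77 to 7.72 CPM with LPS and 5.12 to 6.24 CPM with the combination. Among them Xcr1 had 265 reads with LPS and 31 with the combination, Zbtb46 215 and 155, and Flt3 3 and 229. The part of such cells in the class II values was not tested.

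Targets of the glucocorticoid receptor moved both ways, with more up than down. Of 28 tested, 17 were higher and 9 lower, with a median log2 difference of 0.764. Fkbp5 (ENSMUSG00000024222, chromosome 17, positions 28399094 to 28517527, minus strand), a co-chaperone of the receptor, was at 29.2, 26.9 and 27.4 CPM with LPS and 522, 534 and 522 CPM with the combination. The log2 difference was 4.24 (SE 0.0604, adjusted p = 5.48e-23). Tsc22d3 (ENSMUSG00000031431, chromosome X, positions 140539528 to 140600659, minus strand), which encodes the glucocorticoid-induced leucine zipper, went from 1.64, 2.34 and 2.1 to 149.7, 166 and 144 CPM (6.23, SE 0.112, adjusted p = 1.54e-21). The vehicle libraries were at 43.7, 51.3 and 47.5 CPM, above LPS and below the combination. Tns1, which encodes the focal adhesion protein tensin, was at 14.5, 16.5 and 14.7 CPM with LPS and 509, 570.0 and 509 CPM with the combination (5.12, SE 0.111, adjusted p = 3.05e-20). The phosphatase gene Dusp1, which switches off MAP kinases, rose by 2.85, and the clock gene Per1 by 3.04. Members of this list that fell were Rgs2, a regulator of G protein signalling (-4.18), Fpr1 and the related Fpr2, Errfi1, Thbs1, Anxa1, Stab1, Cebpd and Nr3c1, the receptor gene itself (-0.25).

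Genes that restrain inflammation did not move as a group. Of 25 tested, 6 were higher, 13 lower and 6 not called, and with scaling by library totals alone 10 were higher and 8 lower. On the main scale 31.3% of all genes were higher and 29.3% lower. Dusp1 and Tsc22d3 were the members with the largest rises. Il10, the gene of the anti-inflammatory cytokine IL-10, went from 11.2, 8.74 and 11.2 CPM with LPS to 0.345, 0.615 and 0.192 CPM with the combination. The libraries did not overlap, and the log2 difference was -4.70 (SE 0.304, adjusted p = 6.08e-12), on 28 reads in the combination. Cish and Socs1, feedback inhibitors of cytokine receptors, fell, with log2 differences of -4.89 and -3.09.

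Genes for the clearance of dying cells and for complement included the receptor kinase gene Mertk, which marks macrophages that engulf apoptotic cells. It was at 11.7, 11.7 and 12.5 CPM with LPS and 104, 116 and 102 CPM with the combination, with no overlap and a log2 difference of 3.17 (SE 0.0955, adjusted p = 8.24e-18). Its relative Axl went the other way (-1.91). Complement C1q subunit genes rose, C1qa by 2.30 and C1qb by 1.94, and 10 of the 17 tested members were higher and 5 lower. Markers of alternative activation were split, with 5 higher and 7 lower of 15 tested. For both lists, the shares over all genes were 31.3% higher and 29.3% lower. Cd163, a scavenger receptor for haemoglobin, went from 1.41, 1.7 and 0.808 to 20.3, 23.1 and 21 CPM (3.99, SE 0.176, adjusted p = 7.13e-15). F13a1, a chain of a clotting factor, rose by 2.84 and Chil3, a chitinase-like protein, by 2.51. Irf4, a transcription factor of alternative activation, fell (-3.17).

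Genes of the receptors and signalling proteins upstream of the cytokines moved both ways. Of 30 NF-κB and Toll-like receptor genes, 13 were higher and 9 lower, against 31.3% and 29.3% of all genes. Cd14 and Ly96, which present LPS to TLR4, rose by 1.04 and 1.34. The nucleic acid sensors diverged. Tlr9, which senses DNA, went from 7.05, 5.99 and 7.38 to 37.6, 42.4 and 35.3 CPM (2.51, SE 0.135, adjusted p = 2.45e-13). Tlr7, which senses RNA, went the other way by -1.54 (SE 0.0837, adjusted p = 2.87e-13). Among 20 immediate early transcription factors 8 rose and 10 fell. Klf4 (3.23) and Jun (2.27) rose, and Atf3 (-2.64) and Nr4a3 (-1.48) fell. In the inflammasome list, with 3 higher and 5 lower of 12, the sensor gene Nlrp3 rose (0.93), while the sensor genes Aim2 (-0.63) and Mefv (-0.93) fell.

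Genes of cholesterol synthesis and the cell cycle were lower. Of 24 cholesterol synthesis genes, 20 fell and 4 were not called, with a median of -1.33. Cyp51, a sterol demethylase, went from 174 to 34.1 CPM (means of 3, log2 difference -2.35, SE 0.0772, adjusted p = 3.78e-17), and Hsd17b7 differed by -2.44, Idi1 by -2.31 and Fdps by -2.09. Targets of the liver X receptor, which turns on cholesterol export genes, went 7 higher and 2 lower of 11. The cholesterol exporter gene Abca1 rose by 1.03 and Apoe by 1.62. Of 37 cell cycle and DNA replication genes, 31 were lower, 2 higher (E2f2 and the inhibitor gene Cdkn1b) and 4 not called, with a median of -0.949. Cdkn1b rose by 0.25, and Cdkn1a, another inhibitor gene, was among those that fell (-1.045). The replication helicase subunit Mcm7 differed by -1.81, the ribonucleotide reductase subunit Rrm2 by -2.69 and the cyclins Ccnd1 and Ccnd2 by -2.07 and -3.10. Mki67, a general marker of proliferation, and the mitotic genes Plk1, Cdc20 and Kif20a were the 4 not called.

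Genes of the unfolded protein response mostly rose. In the unfolded protein and integrated stress responses 11 of 15 genes rose and Asns fell, with the chaperone genes Dnajb9 (1.85) and Pdia4 (1.32) leading. Of 12 NRF2 targets 6 rose and 4 fell (2 fell with scaling by library totals alone). Hmox1, which degrades haem, and Gsr, which regenerates glutathione, rose by 1.98 and 1.61, and Nqo1 and Prdx1 fell (-1.21 and -1.10). In glycolysis 5 genes rose and 11 fell of 20, and Pfkfb3, which makes an activator of phosphofructokinase, rose by 2.33. In oxidative phosphorylation 8 of 18 fell and 10 were not called, and with library totals alone 4 fell and 2 rose. In the circadian clock list 4 rose and 7 fell of 14, with Bhlhe40 (-3.17) lowest and Per1 highest. Of 19 lysosomal genes 7 rose and 7 fell, and with library totals alone 12 rose. For all lists in this paragraph, the shares over all genes were 31.3% higher and 29.3% lower.

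In the BAF complex, to which BRD9 belongs, 9 of 24 tested subunit genes were higher and 5 lower (2 lower with library totals alone). Among all genes 31.3% were called higher and 29.3% lower. Bicral, a subunit specific to the non-canonical complex, was at 10.3, 9.76 and 9.32 CPM with LPS and 28.5, 29.5 and 28.8 CPM with the combination. No library of either group overlapped, and the log2 difference was 1.56 (SE 0.0939, adjusted p = 1.7e-12). The difference for its paralog Bicra was 0.48, and for the ATPase gene Smarca2 0.75.

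The highest log2 differences among eligible genes outside these lists included Jaml, Prss16 and Klhl6. Jaml, a junctional adhesion molecule of leukocytes, went from 0.136, 0.0754 and 0.108 CPM with LPS to 26.6, 26.8 and 21.6 CPM with the combination (7.84, SE 0.273, adjusted p = 1.08e-15). Klhl6, an adaptor for protein ubiquitination, went from 2.33 to 81.9 CPM (5.13) and Sult1a1, a sulfotransferase, from 3.17 to 74.8 CPM (4.58). The cytokine receptor gene Lifr (4.72), the adhesion gene Sele (4.42) and the surface protein genes Ms4a4a (4.13) and Ly6c2 (4.07) were also among the 12 highest. At the other end, Tnc, the matrix protein tenascin C, went from 12.2, 10.1 and 13.7 to 0.115, 0.041 and 0.048 CPM, with 5 reads in the combination (-7.31, SE 0.332, adjusted p = 1.1e-14). Inhba, a subunit of activin (-5.74), Lrrc32, which tethers latent TGF-beta (-5.70), the inhibitory ligand Cd200 (-5.64), Ch25h, which makes an oxysterol (-5.43), and the carbonic anhydrase Car2 (-5.03) were also among the 12 lowest.

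How far the combination went beyond each compound was tested against the Dex + LPS and dBRD9 + LPS libraries. The first Dex + LPS library stood apart by transcript length (rho = -0.68 across genes, against 0.599 and 0.629 in the others). Against Dex + LPS, 824 genes (6.51%) were higher and 1175 (9.28%) lower with the combination. Against dBRD9 + LPS the numbers were 3680 (29.1%) and 3384 (26.7%). With the 2 groups alone in the fit, 579 genes were called against Dex + LPS in place of 1999, and without the first Dex + LPS library 2558. Against LPS, 7016 genes (55.4%) were called with Dex + LPS and 2103 (16.6%) with dBRD9 + LPS, against 7671 with both. These contrasts share libraries with the main one, so values are set side by side. With Dex + LPS, 22 of 24 cholesterol synthesis genes were lower than with LPS, and adding the degrader lowered 4 of 24. Adding the degrader to Dex lowered 19 of 45 type I interferon genes, the other 26 not being called, and it lowered 7 of 14 GTPases and raised 2. Of the cytokines it lowered 15 of 31 and raised 4. Of glucocorticoid receptor targets it lowered 12 of 28 and raised 1, and of chemoattractant receptors it lowered 9 of 14 and raised 2.

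Some genes fell further with both compounds than with either. Oasl1 was at 85.5, 67.5 and 70 CPM with Dex + LPS and 89.2, 87.4 and 107 CPM with dBRD9 + LPS, against 19.2, 22.4 and 19.4 CPM with both. The combination libraries lay below all others, and the log2 difference was -1.87 to Dex + LPS and -2.21 to dBRD9 + LPS. Il10 was at 2.04, 1.7 and 1.55 CPM with Dex + LPS and 3.88, 4.93 and 4.54 CPM with dBRD9 + LPS, and its log2 differences were -2.16 and -3.49. Apol7c, almost silent with vehicle (1 read in 3 libraries), was at 13.4, 13.8 and 12 CPM with LPS, 1.73, 1.1 and 1.51 with Dex + LPS, 2.83, 3.47 and 4.25 with dBRD9 + LPS and 0.153, 0.205 and 0.096 with both. Cav1, the coat protein of caveolae, was at 216, 227 and 213 CPM with LPS and 11.3, 12.7 and 15 CPM with the combination. It differed by -1.96 from Dex + LPS and by -2.38 from dBRD9 + LPS, and Serpinb9b, a protease inhibitor, by -2.02 and -4.62. Ccr3 and Tgtp2 were in the same position.

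Other genes were above both. Tlr9 was at 12, 20.6 and 17.1 CPM with Dex + LPS, 12.2, 12.2 and 12.4 CPM with dBRD9 + LPS and 37.6, 42.4 and 35.3 CPM with both. The combination libraries lay above all others, with log2 differences of 1.23 and 1.65. Trem1, which amplifies myeloid activation, was at 0.818, 1.13 and 0.701 CPM with LPS, 5.25, 6.38 and 6.17 CPM with Dex + LPS, 1.2, 0.867 and 1.98 CPM with dBRD9 + LPS and 16.9, 11.9 and 14.8 CPM with both. C3, the central complement component, was at 687, 649 and 658 CPM with LPS, 780.1, 913 and 880.4 CPM with Dex + LPS, 697, 713 and 732 CPM with dBRD9 + LPS and 1449, 1591 and 1509 CPM with both. For C3 the log2 difference to LPS was 1.19, with differences of 0.82 to Dex + LPS and 1.09 to dBRD9 + LPS. Prss16, a serine protease, was at 10.7, 11.5 and 8.77 CPM with Dex + LPS and 21.5, 18.8 and 18.3 CPM with both. The lipid transporter Abca6 (0.73 and 3.34; the former had an adjusted p of 0.0773 with those 2 groups alone in the fit), the transcription factor Egr1 (0.91 and 1.40), Ifitm1 (0.81 and 2.60) and Trp53inp1 (0.83 and 2.42) were also above both.

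**Figure D3:**
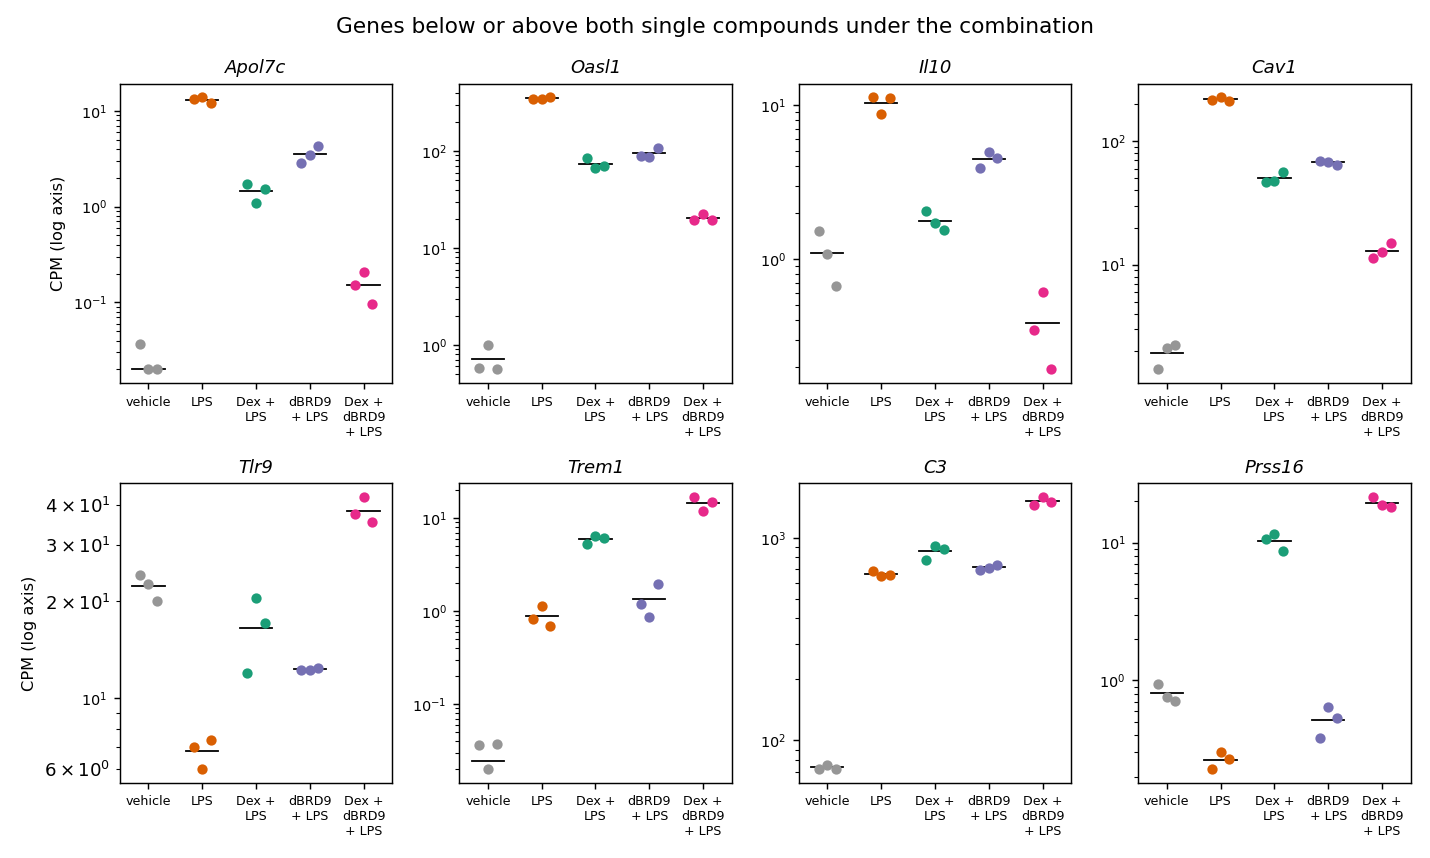
CPM on a log axis in each of 3 libraries (points) and their mean (bar) in 5 groups of experiment 1, for 4 genes lowest (top row) and 4 highest (bottom row) with the combination among the LPS-treated groups shown; values under 0.02 CPM are drawn at 0.02. In all 8 genes the 3 combination libraries lay outside the range of the Dex + LPS and dBRD9 + LPS libraries.

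In other genes the level with Dex + LPS was above LPS alone and was lower once the degrader was added. F13a1 was at 290.4, 349 and 311 CPM with Dex + LPS and 55.4, 68.6 and 58.6 CPM with the combination, a log2 difference of -2.38 (SE 0.102, adjusted p = 2.44e-13). It remained above the 9.18, 8.52 and 7.76 CPM of LPS alone. Cbr2, a carbonyl reductase, was at 95.8, 69.8 and 69.3 CPM with Dex + LPS and 12.1, 10.7 and 8.4 CPM with the combination (-2.91, SE 0.158, adjusted p = 1.06e-11). Tg, the thyroglobulin gene, and Ms4a4a showed the same order, with log2 differences of -2.92 and -1.07. Fpr1 rose with Dex, from 19.9 to 37.3 CPM, and was at 4.02, 4.26 and 4.99 CPM with the combination, below LPS alone. Mefv, the pyrin gene, likewise went from 41 to 73.2 CPM with Dex and was at 19, 22.4 and 23.4 CPM with the combination. Without Dex the degrader also lowered F13a1, Cbr2 and Fpr1, with log2 differences to LPS of -1.62, -1.29 and -2.75. Its effect with Dex minus that without was -0.76, -1.62 and -0.33 (adjusted p = 0.0421, 0.0164 and 0.587). The Cbr2 call was lost with limma voom (adjusted p = 0.0505) and without dBRD9 + LPS replicate 1 or 2 (adjusted p = 0.091 and 0.0726). Fpr1 was higher with the combination than with dBRD9 + LPS (0.58, adjusted p = 0.0233). Fkbp5, Dusp1 and Tsc22d3 were not called between the combination and Dex + LPS (log2 differences -0.034, -0.033 and -0.10).

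Whether the degrader acted differently with and without Dex was tested as an interaction, the degrader's log2 effect with Dex minus that without. It was called in 429 genes, 230 (1.82%) higher and 199 (1.57%) lower. This number ranged from 266 to 890 when single libraries were left out, with 890 without the first Dex + LPS library, was 949 without the first Dex + LPS and first combination libraries and 211 with 4 groups alone in the fit. It was called in 7 of 45 type I interferon genes and 6 of 12 NRF2 targets, all of them higher. Tnfsf10, the death ligand TRAIL, had the largest positive interaction among eligible genes (1.63, SE 0.241, adjusted p = 0.00039). It was at 10.7, 9.53 and 10 CPM with LPS, 5.99, 5.06 and 4.73 CPM with dBRD9 + LPS, 1.82, 1.98 and 1.28 CPM with Dex + LPS and 2.03, 3.24 and 2.93 CPM with both, so that the degrader lowered it without Dex (-0.94). With Dex the degrader's effect was 0.69 (SE 0.196, adjusted p = 0.0177), a call that was lost with those 2 groups alone in the fit (adjusted p = 0.191) and when single libraries were left out (adjusted p up to 0.116). Tlr8 was lowered by the degrader alone (-1.06) and did not differ detectably from LPS with the combination (0.025, interaction 1.42, SE 0.219, adjusted p = 0.00062). Saa3, an acute phase protein, was at 218, 213 and 204 CPM with LPS, 69.8, 58.6 and 65.6 CPM with dBRD9 + LPS, 4225, 4191 and 3883 CPM with Dex + LPS and 2893, 3602 and 3484 CPM with both (interaction 1.41, SE 0.106, adjusted p = 8.58e-08). Ccl17, a chemokine for T cells, had a negative interaction (-1.96, SE 0.228, adjusted p = 1.83e-05), with 26.6, 29.4 and 31.1 CPM in LPS, 52.4, 50.5 and 68 in dBRD9 + LPS, 24.8, 14.6 and 17.4 in Dex + LPS and 10.5, 9.27 and 8.98 in the combination. Apol7c, Oasl1 and Il10, which fell further with both compounds, had no called interaction (adjusted p = 0.112, 0.979 and 0.339), and a p above the threshold does not show that the effects add up exactly.

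**Figure D4:**
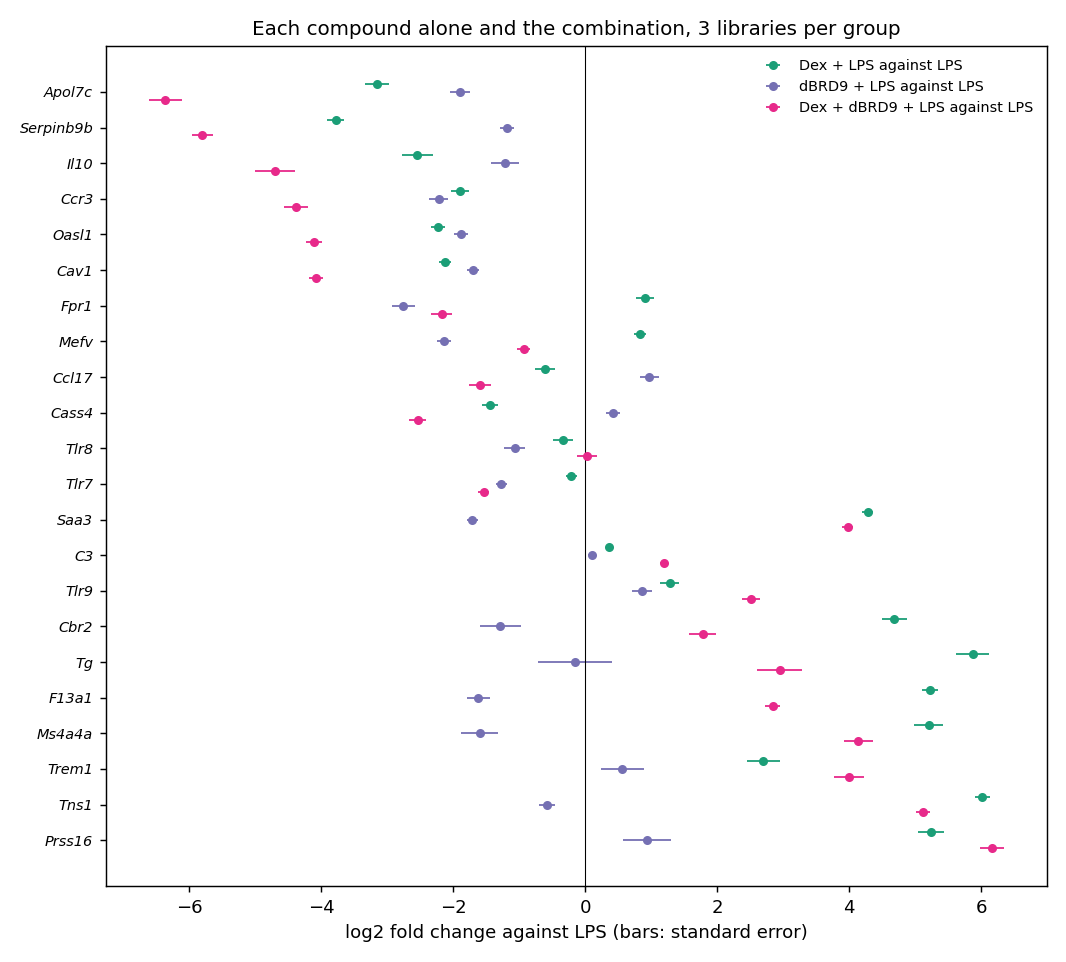
Log2 fold change against LPS (x axis, points with standard errors) of Dex, of dBRD9 and of both for 22 named genes (y axis), 3 libraries per group. Oasl1 lay at -2.23 with Dex, -1.89 with dBRD9 and -4.10 with both, and Fpr1 at 0.91, -2.75 and -2.17.

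The second experiment tested the same combination under IFNγ + LPS, with no sample in common with the first. There 1937 genes (14.5% of 13313) were called higher and 1910 (14.3%) lower than with IFNγ + LPS, and leaving out single libraries gave 2293 to 2450 calls in place of 3847. Of 11945 genes tested in both experiments, 1155 were called higher in both, which is 29.9% of those called higher in the first and 61.3% of those called higher in the second. Lower in both were 1056 (30.1% and 64.6%), and 479 were called in opposite directions. Among these genes 32.4% were called higher and 29.4% lower in the first experiment, and 15.8% and 13.7% in the second. The difference between the effects in both experiments was itself called in 4766 of 13539 genes (35.2%). Cells, libraries and stimulus differed between the experiments together, so a difference cannot be assigned to IFNγ.

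Glucocorticoid-induced genes rose in this experiment too. Fkbp5 was at 13.5 and 13.4 CPM with IFNγ + LPS and 299 and 272 CPM with Dex + dBRD9 added (log2 difference 4.41), and the difference between experiments was -0.091 (SE 0.101). Tsc22d3 rose by 6.62 and Tns1 by 5.07. Of 27 tested glucocorticoid receptor targets 16 rose and 4 fell. Of 29 tested cytokines and chemokines 17 fell and 7 rose. Type I interferon genes fell in 35 of 45 and rose in 1, but with a smaller median of -0.588, and GTPases fell in 9 of 14, with a median of -0.484. Il1b fell further, from 1303 and 1178 to 89.2 and 107 CPM (-3.66, difference between experiments 1.66, SE 0.118, adjusted p = 3.88e-12), as did Il6 (-2.63, difference 1.43) and Il12b (-3.07, difference 1.36). Tnf was not called (-0.24, adjusted p = 0.0958).

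Effects on class II and several other genes differed between the experiments. H2-Aa was at 91.8 and 108 CPM with IFNγ + LPS and 97.1 and 92.3 CPM with the combination added, not called (-0.077), and the difference between experiments was -4.79 (SE 0.201, adjusted p = 4.8e-17). H2-Eb1 gave the same picture (difference -4.89), and the class II list had 4 of 12 genes lower and 8 not called, with a median of -0.0801. Ciita still fell, from 50.8 and 56.8 to 13.9 and 21.1 CPM (-1.62). Cxcl10 was higher with the combination in the second experiment, at 8706 and 8469 against 11420 and 10480 CPM (0.35, SE 0.12, adjusted p = 0.0373). Cell cycle genes rose in 15 of 37 and fell in 2 (median 0.48), against 31 lower in the first experiment. Cholesterol synthesis genes rose in 7 and fell in 2 of 23 tested. Mertk was at 216 and 267 CPM with IFNγ + LPS and at 168 and 153 CPM with the combination (-0.59, SE 0.166, adjusted p = 0.0141). Of 10 neutrophil markers 5 were tested, and 4 of these fell in each experiment, where 29.3% and 14.3% of all genes were lower. S100a8 was not called in the first (0.13), and Camp there had 67 reads with LPS and 16 with the combination. The part of such cells in either experiment was not tested.

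**Figure D5:**
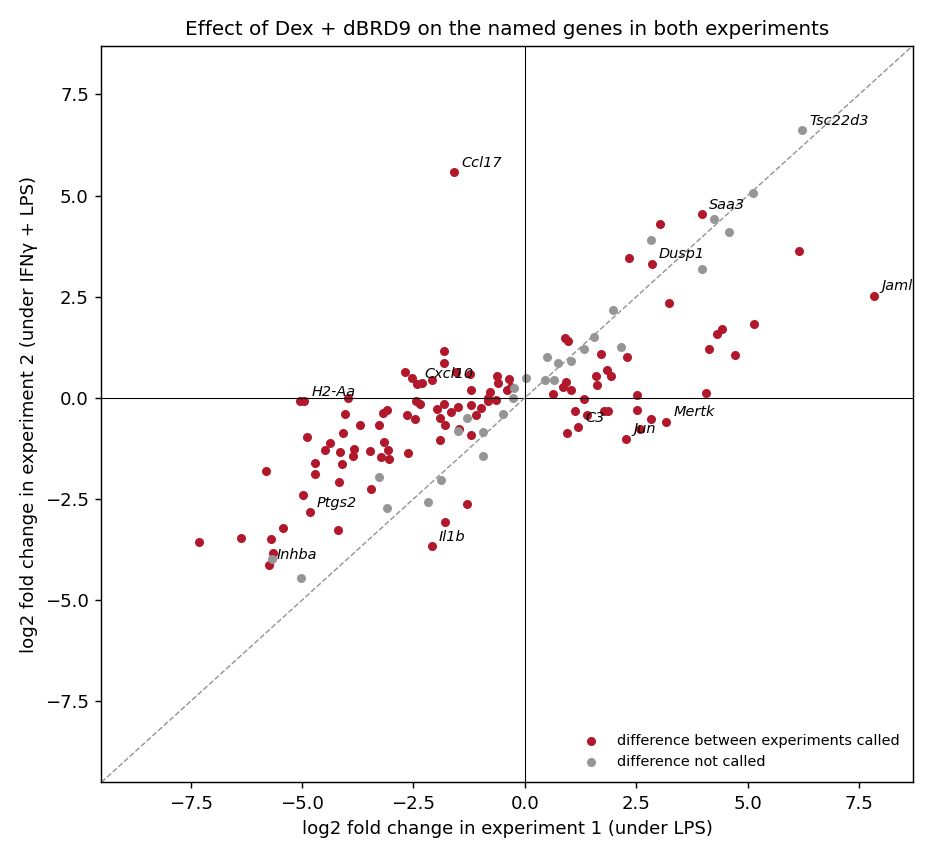
Log2 fold change of the combination in experiment 1 (x axis, under LPS) and experiment 2 (y axis, under IFNγ + LPS) for 142 named genes tested in both, with genes whose difference between experiments was called in red (113) and equal effects on the dashed line. Tsc22d3 and Dusp1 lie near the line, H2-Aa near 0 on the y axis, and Ccl17 and Jun in opposite quadrants.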

How the data were processed

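The authors deposited raw read counts for each Ensembl gene in 1 table per experiment, with 1 column per library. All columns were used. Per the submitters' processing notes, the build is mm10 and the tools named are fastp, STAR and DESeq2, without roles or versions. No source used here names the counting step, its annotation or whether it used strand, so overlapping and antisense genes are uncertain. Of 35275 and 54532 gene identifiers, 34490 and 54409 had a symbol in the reference table. Positions are from GENCODE M21 (mm10) and promoters from RefSeq.

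All 21 libraries of experiment 1 were fitted together with 1 coefficient per group, and the 10 of experiment 2 likewise. Genes were kept by filterByExpr (minimum count 10, minimum total 15), scaled by TMM and tested with edgeR 4.0.16 (quasi-likelihood, R 4.3.3). Every adjusted p is from this test unless another tool is named. The difference between experiments came from a joint fit over 34519 shared identifiers. The common biological coefficient of variation was 6.79% and 10.6%. On simulated data for the main comparison (12662 genes), 88% of planted 1.5-fold and 93% of 2-fold changes were recovered, with 11 false calls. The simulation gave every gene the common spread, drew libraries independently and planted 100 genes per fold. It held no library that deviates by transcript length and far fewer changed genes than were called, so these rates may not carry over. Alternatives were DESeq2 1.42.0, limma 3.58.1 (voom), other scaling, filtering, blocks and left-out libraries.

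The named genes were 16 fixed genes, the 12 highest and 12 lowest called genes with at least 10 CPM and no overlap between libraries, up to 4 per list, and the genes beyond both compounds or with the largest interactions. Of these, 1 gene is not reported here. The lists and members were chosen with earlier results of these data known. Members named to account for small counts, and those in the dendritic cell sentence, were chosen after their values were seen. The groups with iBRD9 entered the fit and are not reported. Read totals limit the precision of genes with few reads.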

Additional observations from a re-analysis of the deposited data

Results flagged for a closer look

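A test of the difference itself showed that the effect of Dex + dBRD9 differed between the experiments, with opposite signs, in 14 named genes called in both. Differences are log2 effects under LPS minus those under IFNγ + LPS, and cells, libraries and stimulus changed together. In 6 genes the combination raised expression in experiment 1 and lowered it in experiment 2: Mertk (3.836), Ifitm1 (3.442), Jun (3.351), Mylip (2.279), C3 (1.995) and Pfkl (1.904). The reverse order held for Ccl17 (-7.181), Bhlhe41 (-2.884), Cxcl10 (-2.687), Mcm7 (-2.602), Tlr7 (-2.109), Aim2 (-1.083), Ccl2 (-0.8858) and Sdhb (-0.7299). Ccl17 rests on 1 read with IFNγ + LPS against 58 with the combination, a ratio of 58.8 with an exact 95% counting interval of 10.2 to 2360. Jun was at 99.7 and 112 CPM with IFNγ + LPS and 55.2 and 50.3 CPM with the combination, and in experiment 1 at 17.1, 17.9 and 18.9 and 91, 78.7 and 89.3 CPM.

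In 4 named genes of experiment 1 the degrader's effect was called with opposite signs with and without Dex, and the interaction was called. The effect with Dex minus that without was -1.514 for Cass4, a scaffold of focal adhesions, -1.956 for Ccl17, 0.5085 for Hmox1 and 1.626 for Tnfsf10. For Tnfsf10 the effect with Dex (0.69) lost its call with those 2 groups alone in the fit (adjusted p = 0.191), so its opposite sign is uncertain. Cass4 was at 40.8, 40.1 and 39.5 CPM with LPS, 49.7, 55.1 and 56.5 CPM with dBRD9 + LPS, 13.5, 17.2 and 13.7 CPM with Dex + LPS and 7.2, 7.01 and 6.48 CPM with both.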

How the results depend on the processing

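The main count of 7671 called genes stayed within 1.5 times under every alternative run, with 7754 genes when the replicate number was entered as a block. Deviations of same-numbered LPS and combination libraries correlated at 0.00366, -0.114 and 0.152 across 7607 genes, and those of other pairs at -0.174 to 0.189. With 3 libraries per group, deviations from a group mean depend on each other, so these values do not settle whether the numbers pair libraries. The first Dex + LPS, dBRD9 + LPS and combination libraries had length rho of -0.68, -0.33 and -0.515, and the first LPS and vehicle libraries 0.0214 and 0.0701. Between the combination and Dex + LPS, 579 genes were called with only the groups compared in the fit, against 1999. The interaction count of 429 was 211 with only the groups compared and 949 without both libraries that stand apart by length. Leaving out single libraries gave 266 to 890, with 271 without combination replicate 2, 890 without Dex + LPS replicate 1, 269 without LPS replicate 1 and 266 without LPS replicate 3. In experiment 2 leaving out each of the 4 libraries gave 2293 to 2450 calls, against 3847, and the lone library of a group is then assumed to vary like the others. Of 3168 values of named genes under alternatives, 18 lost and 12 gained a call and 0 reversed. These values do not include the effects within experiment 2 or those against vehicle, which were not rechecked for single genes. Effects against Dex + LPS and dBRD9 + LPS were rechecked only for genes named as beyond both compounds or for their interaction. The interaction was rechecked only for the latter, and the difference between experiments only for the genes flagged above. The interaction of F13a1 (adjusted p = 0.0421) and the difference between experiments of H2-Aa were not rechecked. Calls within experiment 2, such as those of Cxcl10 and Ccl2 (adjusted p = 0.0373 and 0.0302), therefore carry no such check. List counts were rechecked for the main comparison only, and so not against Dex + LPS or for the interaction. Of 806 such counts, 17 moved by more than 1.5 times, none of them without the first combination library. The cause of these shifts was not tested. Depth limits genes such as Tnc, with 5 reads in the combination.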
